A study of Mus musculus with 8 samples.

Results

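The 10 genes described here encode enzymes of serine synthesis and of the one-carbon units that serine supplies, together with the first enzyme of proline synthesis. They were chosen by symbol from a list of Phgdh, Psat1, Psph, Shmt1, Mthfd1, Shmt2, Mthfd2, Mthfd1l, Aldh1l2 and Aldh18a1, and all 10 were found among the 24063 genes of the series. RNA was sequenced from tubuloids, which are small tubules and spheres of kidney cells that form in a Matrigel bed seeded with primary mouse kidney fragments. The comparison asked which transcripts differed after Cre was induced in a floxed Pkd2 line, Pkd2 being the gene for polycystin-2 and one of the genes mutated in autosomal dominant polycystic kidney disease. The 8 libraries fell into 4 treated with doxycycline (DOX) and 4 treated with the vehicle dimethyl sulfoxide (DMSO), each treated for 3 days from day 3 of culture and extracted on day 7. Libraries are named below by treatment and by the number in their title, which is 15, 20, 3 and 5 for DMSO and 9, 21, 19 and 12 for DOX.

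Both groups carried the genotype Pkd2fl/fl Pax8rtTA TetOCre mTmG, so the controls also held the floxed alleles, the transactivator, the silent Cre and the membrane reporter. The transactivator is driven by the Pax8 promoter, which limits Cre to renal epithelium, whereas the libraries were made from whole tubuloids. The effects of doxycycline itself, of Cre and of Pkd2 loss cannot be told apart, since no library was treated with doxycycline in the absence of Cre. The labels gave kidneys of postnatal day 7 to day 10, and the methods of the study gave a younger range that overlaps it. Each library was said to come from a separate culture, but the sources do not say which cultures came from separate animals, so p-values measure the spread between these libraries.

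In serine synthesis, Phgdh, Psat1 and Psph act in turn to convert an intermediate of glycolysis into serine. Serine hydroxymethyltransferases then split serine into glycine and a one-carbon unit carried on folate. This occurs in the cytosol through Shmt1 and Mthfd1 and in mitochondria through Shmt2, Mthfd2, Mthfd1l and Aldh1l2, and the units serve the synthesis of purines, thymidylate and methionine. Several of these genes, together with Aldh18a1, are known targets of ATF4, the transcription factor of the integrated stress response.

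Depth and identity of the libraries were examined first. The libraries held 63922677 to 102716313 counts over all transcripts. Reads shared by isoforms of a gene were counted once for each, and the transcript with the highest count of each gene summed to 39252852 to 64561676. Genes with at least 1 count numbered 13243 in DMSO 20 and 13599 in DOX 19, against 17054 to 17903 in the other 6 libraries. Normalised counts of Pkd2 were 6039, 7538, 6128 and 4813 in DMSO 15, 20, 3 and 5 and 4136, 4624, 5952 and 5072 in DOX 9, 21, 19 and 12, which overlapped (log2 fold change −0.31, SE 0.215, adjusted p = 0.999, DESeq2). The count covers the whole transcript, so it does not isolate the floxed part of the gene. The epithelial markers Pax8, Cdh1, Epcam, Krt8, Krt18 and Krt19 were present in all 8 libraries, while Slc34a1 of the proximal tubule and Aqp2 of the principal cell were at 0 in 7 libraries each. The other markers of these cell types were mixed. Slc5a2 of the proximal tubule (549 to 2090 normalised counts) and Gata3 (1175 to 4764) and Fxyd4 (116 to 6262) of the principal cell were present in all 8 libraries, whereas Lrp2, Cubn, Hnf4a, Aqp3 and Avpr2 were at 0 in 2 or more libraries each.

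The start sites of 4 of these genes are shown because Phgdh, Psat1 and Shmt2 had the most similar levels across the libraries and Mthfd2 had the smallest p-value in the comparison of DOX with DMSO. Each sequence is the RefSeq promoter window on GRCm38.p6, which is the mm10 assembly, and runs from 250 bases before to 50 bases after an annotated start. All 4 genes lie on the minus strand and are written 5′ to 3′ in the direction of transcription. Capitals mark the CCAAT box, searched on both strands as CCAAT or its complement ATTGG.
Phgdh, chr3:98339920-98340219: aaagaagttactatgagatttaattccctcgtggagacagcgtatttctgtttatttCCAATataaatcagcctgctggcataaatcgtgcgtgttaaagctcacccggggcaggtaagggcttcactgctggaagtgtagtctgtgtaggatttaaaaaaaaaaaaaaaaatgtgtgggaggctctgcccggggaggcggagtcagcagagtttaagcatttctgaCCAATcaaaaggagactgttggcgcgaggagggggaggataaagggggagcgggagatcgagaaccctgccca
Psat1 at the upstream of its listed starts, chr19:15925010-15925309: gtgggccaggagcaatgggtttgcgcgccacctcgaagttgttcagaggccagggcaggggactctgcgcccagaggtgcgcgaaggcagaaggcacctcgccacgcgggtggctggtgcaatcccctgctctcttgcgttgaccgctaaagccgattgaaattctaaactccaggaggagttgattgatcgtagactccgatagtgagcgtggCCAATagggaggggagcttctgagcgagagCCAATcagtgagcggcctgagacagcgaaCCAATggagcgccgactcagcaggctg
Shmt2, chr10:127522395-127522694: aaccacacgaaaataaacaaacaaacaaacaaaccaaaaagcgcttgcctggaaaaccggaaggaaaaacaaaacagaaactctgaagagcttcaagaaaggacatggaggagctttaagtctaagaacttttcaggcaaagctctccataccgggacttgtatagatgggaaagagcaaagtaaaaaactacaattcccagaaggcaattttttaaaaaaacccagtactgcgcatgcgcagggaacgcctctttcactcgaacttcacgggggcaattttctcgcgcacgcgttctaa
Mthfd2, chr6:83317555-83317854: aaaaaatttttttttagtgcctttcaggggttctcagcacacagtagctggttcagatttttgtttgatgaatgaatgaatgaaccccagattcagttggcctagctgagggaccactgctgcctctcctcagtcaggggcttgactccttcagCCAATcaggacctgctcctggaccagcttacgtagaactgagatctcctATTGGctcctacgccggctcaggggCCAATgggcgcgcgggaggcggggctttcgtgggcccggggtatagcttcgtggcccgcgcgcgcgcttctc

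A CCAAT box was found 2 times in the Phgdh window, 3 times in that of Psat1, 3 times in that of Mthfd2 and not in that of Shmt2. Of all 10 windows of the members 6 held it, those of Psph, Shmt1 and Mthfd1 included, and those of Mthfd1l, Aldh18a1 and the other start of Psat1 did not. The motif occurred in 37.41% of 32851 promoter windows of the same length. Of the 10 members, 9 had a window, and Aldh1l2 had no entry. The composite site at which C/EBP and ATF factors bind, searched on both strands as TGATGNAA, was present in 0 of the 10 windows of these 9 genes and in 3.97% of all windows, and its absence says only that these letters do not lie in these stretches. The E-box CACGTG was present in the Aldh18a1 window, at 59 bases before the start, and in 7.15% of all windows.

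Phgdh, the dehydrogenase that opens serine synthesis, lies at chr3:98313171-98339969. Its normalised counts, which are scaled to remove differences in library size, were 18814 in DMSO 15, 5759 in DMSO 20, 11147 in DMSO 3 and 7552 in DMSO 5, and 26629 in DOX 9, 12674 in DOX 21, 9281 in DOX 19 and 19694 in DOX 12. DOX 9 was the highest and DMSO 20 the lowest, and the groups overlapped because DMSO 15 exceeded DOX 21 and DOX 19 and DMSO 3 exceeded DOX 19. Means were 10818 ± 5782 in DMSO and 17070 ± 7708 in DOX (SD, n = 4), and the log2 fold change was 0.66 with a 95% interval of −0.29 to 1.61 (adjusted p = 0.999, DESeq2). A processed pseudogene of the gene, Phgdh-ps1, is annotated, and reads that fit both copies make its count uncertain.

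Psat1, the aminotransferase of the next step, lies at chr19:15905123-15925059. It had normalised counts of 28769, 9756, 16408 and 12389 in DMSO 15, 20, 3 and 5 and 39993, 24731, 16539 and 25202 in DOX 9, 21, 19 and 12. The lowest DOX library was slightly above DMSO 3, and DMSO 15 was above 3 of the 4 DOX libraries. The means of 16831 ± 8416 and 26616 ± 9764 (SD, n = 4) gave a log2 fold change of 0.66 with an interval of −0.18 to 1.51 (adjusted p = 0.999, DESeq2).

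Psph, the phosphatase that releases free serine, lies at chr5:129765558-129787443. Normalised counts of Psph were 4456, 2124, 2708 and 2651 in DMSO 15, 20, 3 and 5 and 7545, 5880, 2145 and 3959 in DOX 9, 21, 19 and 12. DOX 9 and DOX 21 were above every DMSO library, and DOX 19 was level with the lowest of them. The log2 fold change was 0.71 with an interval of −0.16 to 1.58 (adjusted p = 0.999, DESeq2). The Psph exons share 452 bases with a transcript of Cct6a on the opposite strand, and reads of such overlapping genes cannot be told apart if strand was not used.

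The cytosolic enzymes had the smallest estimated differences. Shmt1, the cytosolic serine hydroxymethyltransferase, lies at chr11:60788897-60811265. Its normalised counts were 493, 963, 1180 and 1082 in DMSO 15, 20, 3 and 5 and 998, 711, 575 and 1193 in DOX 9, 21, 19 and 12. The groups overlapped almost completely, and DMSO 15, which was high for the serine synthesis genes, was here the lowest of the 8 libraries. The log2 fold change was −0.10 with an interval of −0.85 to 0.66 (adjusted p = 0.999, DESeq2), and it was above 0 without DMSO 3 (0.04) or without DOX 19 (0.07).

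Mthfd1, which interconverts folate-bound one-carbon units in the cytosol, lies at chr12:76254406-76319820. Normalised counts of Mthfd1 were 2062, 2794, 3382 and 2864 in DMSO 15, 20, 3 and 5 and 3994, 2227, 39.5 and 3496 in DOX 9, 21, 19 and 12. DOX 19 held only 35 reads against 2055 to 4918 in the other 7 libraries, and the remaining DOX libraries overlapped the DMSO range, with DMSO 15 below all of them. The log2 fold change was −0.19 with an interval of −1.97 to 1.59 (adjusted p = 0.999, DESeq2), and 0.23 without DOX 19. In DOX 19, 145 of 9378 genes that were well counted in the 6 libraries other than DMSO 20 and DOX 19 lay below 5% of their mean there (1.55%), Mthfd1 among them. Well counted means at least 500 normalised counts in each of the libraries compared. Such genes numbered 240 in DMSO 20 (2.56%) and 0 to 8 in each of the other 6 libraries, with DMSO 20 and DOX 19 never among the libraries compared.

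The mitochondrial branch held the 2 largest estimated differences, those of Aldh1l2 and Mthfd2. Shmt2, the mitochondrial serine hydroxymethyltransferase, lies at chr10:127517123-127522444. Its normalised counts were 18517, 5137, 9098 and 6433 in DMSO 15, 20, 3 and 5 and 25310, 13570, 10031 and 15744 in DOX 9, 21, 19 and 12. Every DOX library was above DMSO 20, 3 and 5, and DMSO 15 was above all DOX libraries but DOX 9. The log2 fold change was 0.72 with an interval of −0.23 to 1.68 (adjusted p = 0.999, DESeq2).

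Mthfd2, a dehydrogenase and cyclohydrolase that oxidises the one-carbon unit in mitochondria and is characteristic of embryonic and proliferating cells, lies at chr6:83305704-83326011. Its normalised counts were 5986, 1980, 2705 and 2340 in DMSO 15, 20, 3 and 5 and 11125, 6169, 4794 and 6291 in DOX 9, 21, 19 and 12. Again DMSO 20, 3 and 5 lay below all 4 DOX libraries, while DMSO 15 was above DOX 19 and just under DOX 21. Means were 3253 ± 1846 in DMSO and 7095 ± 2771 in DOX (SD, n = 4). The estimate was 2.18-fold higher in DOX, with a 95% interval of 1.18 to 4.04-fold, and the gene did not pass the test across all genes (log2 fold change 1.13, SE 0.454, unadjusted p = 0.0132, adjusted p = 0.693, DESeq2). By edgeR's quasi-likelihood test the unadjusted p was 0.0243 and the adjusted p was 0.999.

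Mthfd1l, which releases formate from mitochondrial folate, lies at chr10:3972892-4167081. The libraries had Mthfd1l normalised counts of 7886, 0, 4893 and 2250 in DMSO 15, 20, 3 and 5 and 6916, 4732, 5668 and 5168 in DOX 9, 21, 19 and 12. DMSO 20 had 0 reads in all 3 of its transcripts, and DMSO 5 was the next lowest library. A count of 0 allows up to 3 counts, or 3.84 normalised counts, for a single transcript. No fold limit is given, since reads shared by the 3 transcripts were counted once for each. The DOX libraries spanned a narrow range that lay inside that of the DMSO libraries. The log2 fold change was 0.58 with an interval of −2.04 to 3.20 (adjusted p = 0.999, DESeq2), 0.16 without DMSO 20 and 1.24 without DMSO 15.

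Aldh1l2, which oxidises formyl-folate in mitochondria, lies at chr10:83487447-83534146. Normalised counts of Aldh1l2 were 4217, 1831, 1136 and 287 in DMSO 15, 20, 3 and 5 and 7874, 2530, 2994 and 3710 in DOX 9, 21, 19 and 12. DMSO 15 was above all DOX libraries but DOX 9, and the other DMSO libraries were below all of them. The log2 fold change of 1.20 was the largest of the 10 and had an interval of −0.24 to 2.63 (adjusted p = 0.999, DESeq2). Its exons share 1056 bases with D10Wsu102e on the opposite strand, and shorter overlaps of this kind were found for Shmt1 (184 bases with Smcr8), Mthfd1 (37 with Gm47525) and Shmt2 (32 with Ndufa4l2).

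Aldh18a1, which makes the precursor of proline and ornithine from glutamate, lies at chr19:40550257-40588463. It had normalised counts of 14712, 6169, 9636 and 6222 in DMSO 15, 20, 3 and 5 and 27250, 12073, 15807 and 15328 in DOX 9, 21, 19 and 12. The groups overlapped only through DMSO 15, which was above DOX 21. Means were 9185 ± 4026 and 17614 ± 6635 (SD, n = 4), and the estimate was 1.92-fold with an interval of 1.11 to 3.32-fold (log2 fold change 0.94, SE 0.405, unadjusted p = 0.0203, adjusted p = 0.812, DESeq2).

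**Figure D1:**
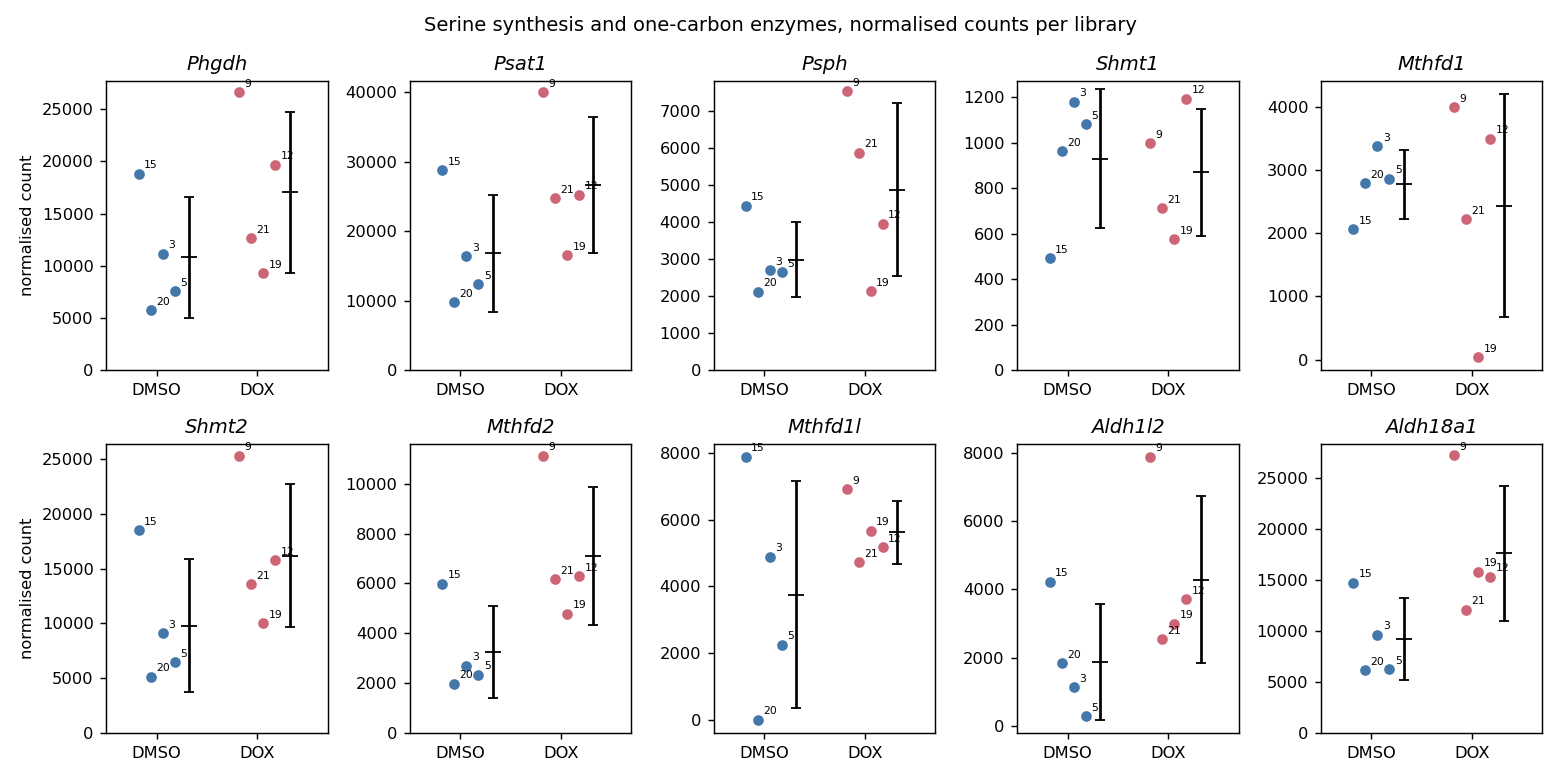
Normalised counts of the 10 genes on linear axes, with 1 point for each library labelled by its number and the mean ± SD of each group (n = 4) beside the points. DMSO 15 lies within the range of the DOX points in the panels of serine synthesis and the mitochondrial branch, except for Mthfd1l, where it lies above them. The points near 0 are Mthfd1 in DOX 19 (39.5) and Mthfd1l in DMSO 20 (0).

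The threshold for a call was an adjusted p no greater than 0.05 together with a 1.5-fold difference. None of the 10 genes was called. Over all genes the same rule called 25 of 17011 genes tested by DESeq2 (0.147%), of which 14 were higher in DOX (0.0823%), and 0 of 15562 by edgeR (0.00%), where 476 genes had an unadjusted p under 0.05 (3.06%). At an unadjusted p under 0.05, 2 of the 10 genes were higher by DESeq2, Mthfd2 and Aldh18a1, against 899 of 19268 genes in either direction (4.67%) and 423 that were higher (2.20%). By edgeR the same 2 genes were higher at this level, against 243 of 15562 genes (1.56%). The median log2 fold change of the 10 genes was 0.69, with 8 above 0, and that of all 17011 genes tested was −0.07, with 44.4% above 0. All 10 had a mean of at least 500 normalised counts. Over the 10661 genes tested that reached this mean the median was −0.0123, with 48.6% above 0. Since the libraries are bulk RNA, more cells that express a gene and more RNA of it per cell cannot be told apart.

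**Figure D2:**
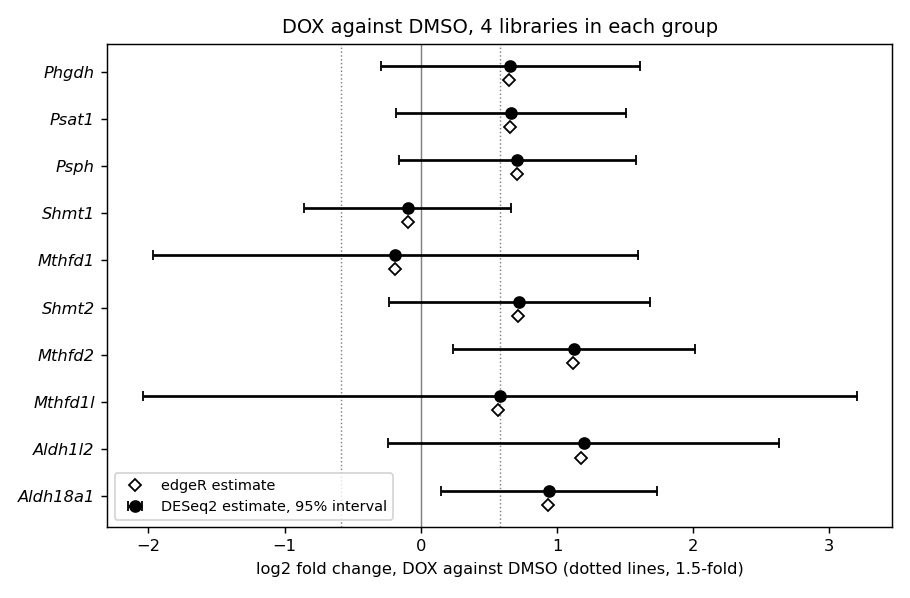
Log2 fold changes of DOX against DMSO (4 libraries each), with DESeq2 estimates and 95% intervals as filled circles and bars, edgeR estimates as open diamonds, and dotted lines at 1.5-fold in either direction. The intervals of Mthfd2 and Aldh18a1 lie above 0, the other 8 include it, and the widest are those of Mthfd1 and Mthfd1l, each with 1 library at or near 0.

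Most of these genes shared their highest and lowest libraries. Apart from Shmt1 and Mthfd1, DOX 9 was the highest library for 7 of 8 genes, DMSO 20 the lowest for 7, and DMSO 5 among the lowest 2 for 7. DOX 9 was the highest library for Mthfd1 as well. Within the controls, DMSO 15 was 1.79 to 3.89 times the mean of the other 3 DMSO libraries for these 8 genes. It was 0.458 times that mean for Shmt1 and 0.684 times for Mthfd1. The cytosolic genes thus lay on the other side of the control mean in DMSO 15.

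To measure how alike the genes were, log2(normalised count + 1) was centred on each gene's mean over the 8 libraries, and the root mean square difference between genes was taken. It was 0.117 between Psat1 and Shmt2, 0.157 between Phgdh and Shmt2 and 0.175 between Phgdh and Psat1. Between Shmt1 and Shmt2, which catalyse the same reaction in different compartments, it was 0.951. These values describe 8 points that share library preparation and depth.

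**Figure D3:**
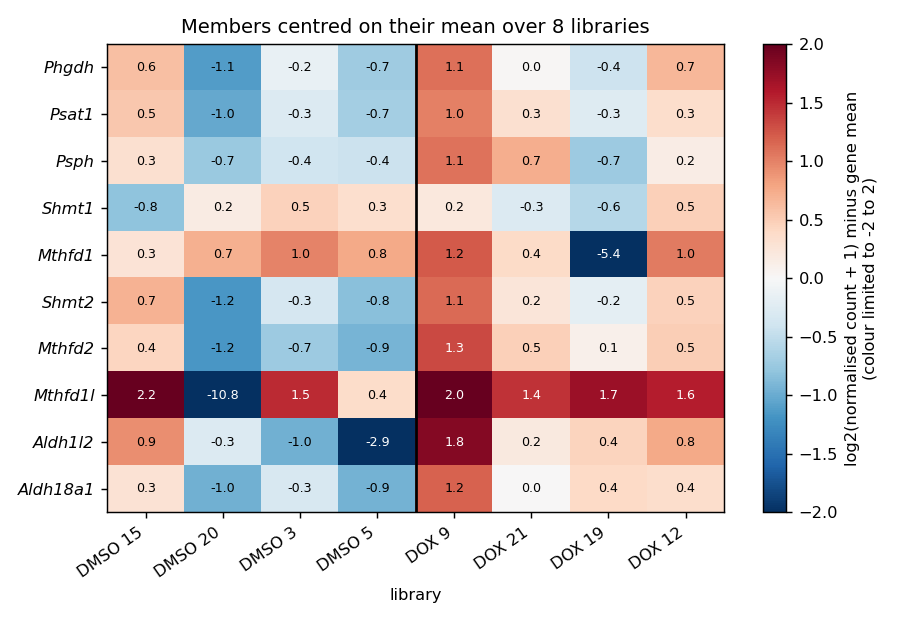
Log2(normalised count + 1) of each gene minus its mean over the 8 libraries, with genes as rows, libraries as columns and colour limited to −2 to 2. Phgdh, Psat1, Shmt2, Mthfd2 and Aldh18a1 are all darkest blue in DMSO 20 and darkest red in DOX 9, Shmt1 is not, and the cells at the lower colour limit are Mthfd1l in DMSO 20, Mthfd1 in DOX 19 and Aldh1l2 in DMSO 5.

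Other genes with the most similar pattern were then sought among 14047 genes with a mean of at least 50 normalised counts. The nearest to Phgdh were Cad (root mean square difference 0.172), which starts pyrimidine synthesis, Pycr1 (0.233), which completes proline synthesis, and Gars (0.235), the glycyl-tRNA synthetase. The nearest to Psat1 were Pck2 (0.137), the mitochondrial phosphoenolpyruvate carboxykinase, Cad (0.177) and Gars (0.209). For Mthfd2 they were Asns (0.22), the asparagine synthetase, Eif4ebp1 (0.225), a repressor of translation initiation, and Gars (0.244). The median difference of all genes compared was 0.91 from Phgdh, 0.851 from Psat1 and 0.992 from Mthfd2.

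Cell type markers were then summed in each library. The summed normalised count of 9 stromal markers was 756820 in DMSO 15, 56706 to 239100 in the other DMSO libraries and 129880 to 189650 in DOX. That of 7 epithelial markers was lowest in DMSO 15, at 50716, with 208540 the highest DMSO value and 56161 to 120000 in DOX, close to DMSO 15 at the lower end. DMSO 15 was not the lowest library for Pax2, Krt8, Krt18 or Krt19. The stromal markers did not all follow the sum. Pdgfra was at 3802 in DMSO 15 and up to 8439 elsewhere, and Pdgfrb was at 41954 in DMSO 15 and 66175 in DMSO 20. Of the stromal markers Dcn was at 0 in DMSO 20 and Lum at 0 in DOX 19, and none of the 16 markers was called. The part of these differences in the levels of the 10 genes was not tested.

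The fit was repeated without each library in turn, and a member was called only without DMSO 15. In that fit the log2 fold change of Mthfd2 was 1.60 and the gene was called (adjusted p = 0.00383, DESeq2), as were 75 of 13039 genes tested (0.575%). Aldh18a1 was at 1.27 with an adjusted p of 0.0651. Shmt2 was at 1.24 (adjusted p = 0.13), Aldh1l2 at 1.98 (adjusted p = 0.172) and Psat1 at 1.05 (adjusted p = 0.202). In all, 5 genes then lay higher in every DOX library than in every remaining DMSO library, namely Psat1, Shmt2, Mthfd2, Aldh1l2 and Aldh18a1, against 3.74% of 17633 genes. With all 8 libraries the count was 0 of 10, against 1.63% of genes. DMSO 15 was singled out for the values of these genes, so the counts without it are a description only.

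Without each of the other 7 libraries none of the 10 genes was called. Leaving out DOX 9 gave the lowest estimate for most of them, 0.82 for Mthfd2, 0.65 for Aldh18a1 and 0.36 for Phgdh. All DOX libraries were above all DMSO libraries for Aldh18a1 without DOX 21 (2.80% of genes in this direction), for Mthfd2 without DOX 19 (3.31%), and for none of the 10 without DMSO 20 (3.24%), DMSO 3 (2.54%), DMSO 5 (2.48%), DOX 9 (2.52%) or DOX 12 (2.44%). In the comparison of 3 libraries with 3, without the libraries of low detection DMSO 20 and DOX 19, Mthfd2 was higher in every DOX library than in every DMSO library, as were 5.51% of genes, and no member was among the 51 genes called (0.296%).

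**Figure D4:**
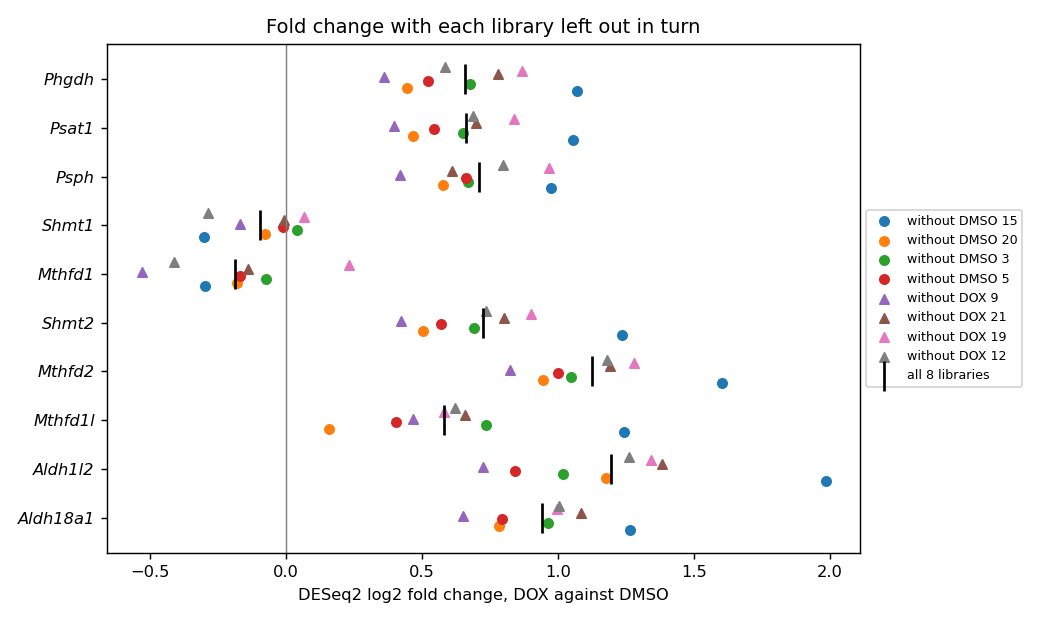
DESeq2 log2 fold changes of DOX against DMSO with each library left out in turn (circles, a DMSO library left out; triangles, a DOX library) and with all 8 libraries (black bar). Leaving out DMSO 15 gives the highest value for the 8 genes other than Shmt1 and Mthfd1, and Mthfd2 ranges from 0.82 to 1.60.

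Levels were compared between genes in TPM, a unit scaled for transcript length and library total, using the transcript with the highest count of each gene. Phgdh was the most abundant, at 181 ± 96.3 TPM (SD, n = 8), followed by Psat1 at 121 ± 55.4, and Phgdh was above Psat1 in 8 of 8 libraries. Shmt2 (68.1), Psph (62.1) and Mthfd2 (60.8) were not ordered beyond their spread, with Shmt2 above Psph in 5 of 8 libraries and Psph above Mthfd2 in 5 of 8. Psph was above Mthfd2 in 4 of 4 DMSO libraries (means 45.1 and 35.9 TPM), and Mthfd2 was above Psph in 3 of 4 DOX libraries (85.6 and 79.1 TPM). Aldh18a1 was at 46.0, and was above Mthfd1 (19.4) in 8 of 8 libraries. Aldh1l2 (12.3), Shmt1 (10.8) and Mthfd1l (10.4) were the least abundant and overlapped. Aldh1l2 had the lowest mean of the 10 in DMSO (6.95 TPM, and 4.36 without DMSO 15). The next lowest there was Mthfd1l at 7.73, which was at 0 in DMSO 20. In DOX the mean of Aldh1l2 was above those of Mthfd1l and Shmt1 (17.7 against 13.0 and 10.8 TPM), but it was above Mthfd1l in only 2 of 4 libraries. When TPM was summed over transcripts, Psat1 (236) stood above Phgdh (181), because its 2 transcripts hold nearly the same reads. The 2 transcripts of Aldh18a1 had equal counts in all 8 libraries.

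Ratios of a mitochondrial to a cytosolic enzyme within a library do not depend on scaling between libraries. With the highest transcript of each gene, the Shmt2/Shmt1 ratio of TPM was 16.8, 2.39, 3.45 and 2.66 in DMSO 15, 20, 3 and 5 and 11.4, 8.55, 7.81 and 5.91 in DOX 9, 21, 19 and 12. The 4 DOX ratios were above those of DMSO 20, 3 and 5, and the ratio of DMSO 15 was above them all. With TPM summed over transcripts the medians were 6.13 in DMSO and 16.4 in DOX, and with the highest transcript 3.06 and 8.18.

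The Mthfd2/Mthfd1 ratio of TPM was 4.66, 1.14, 1.28 and 1.31 in DMSO 15, 20, 3 and 5 and 4.47, 4.45, 195 and 2.89 in DOX 9, 21, 19 and 12. Again only DMSO 15 reached the DOX values, and the ratio of DOX 19 rests on the 35 reads of Mthfd1. The Mthfd1l/Mthfd1 ratio with the highest transcript was 1.18, 0, 0.452 and 0.245 in DMSO and 0.532, 0.654, 44.5 and 0.458 in DOX, in the same order of libraries. No test was run on the ratios.

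**Figure D5:**
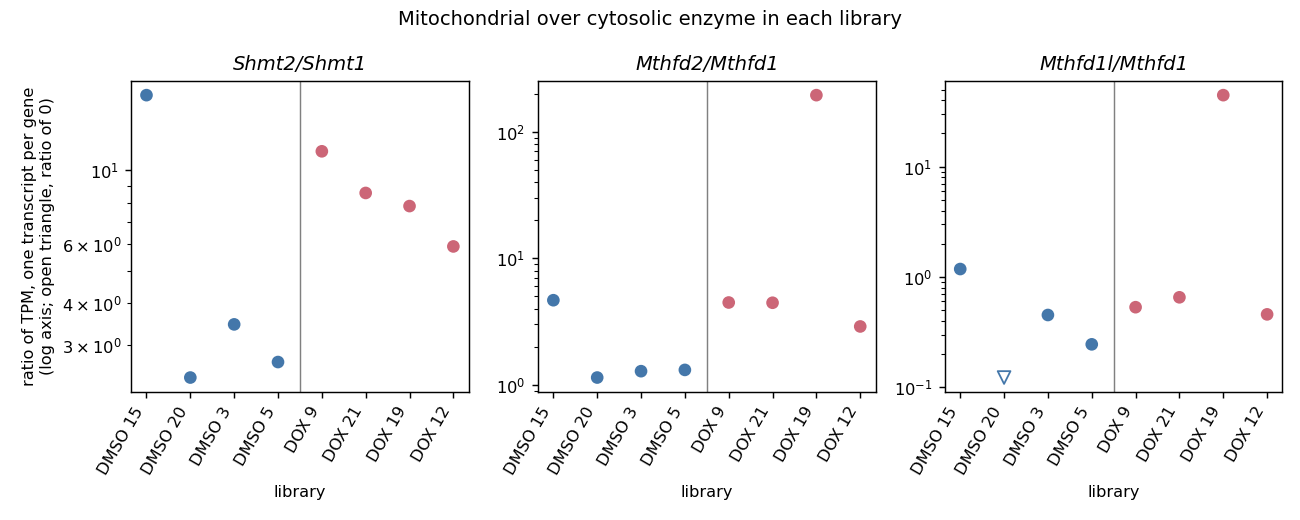
Ratios of TPM (highest transcript of each gene) of a mitochondrial to a cytosolic enzyme in each library, on log axes, with DMSO in blue and DOX in red. DMSO 15 lies apart from the other DMSO libraries in the first 2 panels, DOX 19 is far above the rest in both panels with Mthfd1, and the open triangle marks the ratio of 0 in DMSO 20.

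Among 75 further genes of the pathway in 7 lists, 71 were tested, 1 was called higher and 0 were called lower, with a median log2 fold change of 0.08. At an unadjusted p under 0.05, 9 were higher and 1 was lower. Over all genes 0.147% were called, and 4.67% had an unadjusted p under 0.05, with 2.20% higher in DOX. The called gene was Slc3a2, the heavy chain of several amino acid exchangers, from the list of ATF4 factors and targets. Its normalised counts were 22247, 21082, 24914 and 20618 in DMSO 15, 20, 3 and 5 and 51058, 39940, 31157 and 36792 in DOX 9, 21, 19 and 12. All DOX libraries were above all DMSO libraries (log2 fold change 0.84, SE 0.203, adjusted p = 0.0309, DESeq2), and DMSO 15 did not stand apart. By edgeR the adjusted p was 0.999, and by DESeq2 it rose above the threshold without DMSO 20 (0.103), DMSO 3 (0.0639), DMSO 5 (0.158), DOX 21 (0.0958) or DOX 12 (0.0847).

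Of the 19 ATF4 factors and targets 18 were tested, 1 was called and 5 were higher at an unadjusted p under 0.05, with a median log2 fold change of 0.58. Ddit3 was not tested, since the filter on Cook's distance left it without a p-value. It had a log2 fold change of 1.79 by DESeq2 and an adjusted p of 0.999 by edgeR. Its normalised counts were 1749 to 3694 in DMSO and 4535 to 23322 in DOX, with DOX 9 the highest. Over all genes the shares higher in DOX were 0.0823% called and 2.20% at an unadjusted p under 0.05. The summed normalised count of the 19 genes was 124150 to 212450 in DMSO, with DMSO 15 the highest, and 184280 to 323300 in DOX, with DOX 9 the highest. Both libraries were also high for the serine synthesis genes, but the other libraries did not keep the same order. DMSO 20, the lowest library for most of the members, had a sum of 164180, above DMSO 3 (150370) and DMSO 5 (124150). DOX 12 had the lowest sum of the DOX libraries. Without DMSO 15, Asns (log2 fold change 1.82, adjusted p = 0.000884), Eif4ebp1 (1.48, 0.00359) and Slc7a5 (1.25, 0.0488), the light chain partner of Slc3a2, were called beside Slc3a2 (DESeq2), where 0.575% of all genes tested were called.

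In the list of 7 serine and glycine transporters 0 were called and the median was 0.33. Slc6a9, the glycine transporter GlyT1, had normalised counts of 1682, 2177, 1250 and 1447 in DMSO 15, 20, 3 and 5 and 4529, 3744, 8580 and 2657 in DOX 9, 21, 19 and 12. The DOX libraries were all above the DMSO libraries, as for 1.63% of genes, and the adjusted p was 0.0686 by DESeq2 (log2 fold change 1.57, SE 0.413) and 0.999 by edgeR. It was under 0.05 in 6 of 16 alternative fits. Slc1a4, an exchanger of serine and alanine, had a log2 fold change of 0.98 (adjusted p = 0.976, DESeq2).

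In the other lists no gene was called. The 15 tested genes of the remaining folate cycle had a median log2 fold change of −0.14, with Mtr, the methionine synthase, at 0.61 (adjusted p = 0.28) and Ggh, which trims folate polyglutamates, at −0.54 (adjusted p = 0.83, DESeq2). Without DOX 21, Ggh was called lower (log2 fold change −0.76, adjusted p = 3.4e-05, DESeq2). For Mtr the means were 643 ± 82.4 and 980 ± 133 normalised counts (SD, n = 4). The 8 tested genes of the methionine cycle and transsulfuration had a median of −0.07, with Cth, which makes cysteine from cystathionine, at 1.15 (adjusted p = 0.893) and Ahcyl2 at 0.28 (adjusted p = 0.999, DESeq2).

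The 11 tested genes of glycine and serine use had a median of −0.04, with Sardh, the sarcosine dehydrogenase, at 0.37 and Pipox at −2.25, the latter at 0 in 3 libraries. Purine synthesis, which consumes formyl-folate, had a median of 0.19 over 6 genes, with its first enzyme Ppat at 0.43 and Gart at 0.21. The 6 genes of proline synthesis and breakdown had a median of −0.03, with Pycr1 at 0.69 and Pycrl at 0.28. Each of these 6 named genes had an adjusted p of 0.999 (DESeq2).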

How the data were processed

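Poly-A selected SMART-Seq v4 libraries of 4 DOX and 4 DMSO cultures were used, grouped by their titles. Per the labels, reads were aligned to mm10 and processed with STAR, featureCounts and DESeq2, whose versions are not given in the sources used here, nor is the use of strand in counting. The authors deposited raw counts of reads for each RefSeq transcript. The FPKM values, in which the authors scaled the counts for length and depth, were not used. The deposited TPM is scaled by the authors to a fixed sum per library and was used for levels and ratios.

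Counts were summed by gene symbol (33068 transcripts, 24063 genes) and tested with the DESeq2 1.42.0 Wald test in R 4.3.3, with median-of-ratios size factors, independent filtering at alpha 0.1, the filter on Cook's distance, unshrunken fold changes and Benjamini-Hochberg adjustment over all genes. edgeR 4.0.16 (quasi-likelihood, TMM) is given beside it. Both were tested on simulated data. Depth was 63922677 to 102716313 counts per library. The intervals of fold changes rest on the spread between libraries, and the limit on a count of 0 covers counting error only. Members and lists were chosen with earlier results of these data known. Named beyond the 10 members were each called gene of the pathway lists, otherwise the 2 of each list with the largest absolute Wald statistic, and the 3 genes nearest in pattern to Phgdh, Psat1 and Mthfd2. Further genes named for their calls without DMSO 15, for their marker role or, as Ddit3, for lacking a test, were chosen after their values were seen. Alternatives were TMM size factors, edgeR, filters on low counts, limma-voom (limma 3.58.1), 1 transcript per gene, low detection as a covariate, 3 against 3 libraries, other thresholds and leaving out each library. Overlapping genes were read from GENCODE M21, and positions and promoters from RefSeq on GRCm38.p6.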

Additional observations from a re-analysis of the deposited data

Results flagged for a closer look

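In each group of 4 libraries, the gap between an extreme library and its nearest neighbour was divided by the range of the group and compared with Dixon's 95% critical value. Of 26 groups, 6 exceeded it, and chance gives about 1 in 20, or 1.3 groups here. The groups are not independent, since the ratios share genes. Mthfd1 in DOX 19 had a quotient of 0.873, with a log2(normalised count + 1) of 5.34 against 11.12 to 11.96 in the other DOX libraries. Mthfd1l in DMSO 20 had a quotient of 0.86, with a value of 0 against 11.14 to 12.95 in the other DMSO libraries.

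In ratios of TPM summed over transcripts, Shmt2/Shmt1 in DMSO 15 had a quotient of 0.926 (33.7 against 4.79 to 6.92) and Mthfd2/Mthfd1 in DMSO 15 a quotient of 0.951 (4.66 against 1.14 to 1.31). In DOX 19, Mthfd2/Mthfd1 had a quotient of 0.992 (195 against 2.89 to 4.47) and Mthfd1l/Mthfd1 a quotient of 0.995 (129 against 1.33 to 1.91), both set by the low count of Mthfd1 in that library. The cause of these values was not tested.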

How the results depend on the processing

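DESeq2 called 25 genes in all. The count was 0 by edgeR and 0 by limma-voom, 16 with at least 10 counts in every library, 44 with Cook's distance and independent filtering off, 41 with low detection as a covariate, 51 with 3 against 3 libraries and 40 at an adjusted p of at most 0.1. It was 14 to 75 without each library in turn, with 14 without DMSO 3, 38 without DOX 21, 48 without DMSO 20 and 75 without DMSO 15. Calls among the 10 members stayed at 0 in all alternatives except without DMSO 15, where Mthfd2 was called (range 0 to 1). Calls in the pathway lists (1, Slc3a2) were 0 by edgeR and limma-voom, 2 with 1 transcript per gene, low detection as a covariate, 3 against 3 libraries or an adjusted p of at most 0.1, and 0 to 4 without each library in turn, being 4 without DMSO 15 and 0 without DMSO 3 or DMSO 5. The single call was Slc6a9 in place of Slc3a2 with at least 10 counts in every library, without DMSO 20 and without DOX 12, and was Ggh, lower in DOX, without DOX 21. Of the members' log2 fold changes, 153 alternative values kept their direction and side of the threshold, 5 reversed and 1, Mthfd2 without DMSO 15 (1.60), gained a call. Those of Shmt1 (−0.10) and Mthfd1 (−0.19) turned to 0.10 and 0.25 with 3 against 3 libraries. Without each library in turn Shmt1 ranged from −0.30 to 0.066 (0.066 without DOX 19 and 0.042 without DMSO 3), Mthfd1 from −0.53 to 0.23 and Mthfd2 from 0.82 to 1.60. By limma-voom Mthfd1l was at 2.77 and Mthfd1 at −1.11. With 1 transcript per gene mean TPM was 88.9 in DMSO and 154.0 in DOX for Psat1, 48.2 in DMSO and 88.0 in DOX for Shmt2, 7.73 in DMSO and 13.0 in DOX for Mthfd1l, and 29.8 in DMSO and 62.2 in DOX for Aldh18a1, and the median Shmt2/Shmt1 ratio in DOX was 8.18, since reads shared by isoforms are counted once. Other causes were not tested. The common biological coefficient of variation was 0.766 (edgeR). No paired analysis was possible because the sources do not say which cultures share a preparation or an animal.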

Other observations

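Other marker lists held no called gene. Proliferation markers, 14 genes of replication and mitosis, had a median log2 fold change of −0.47, with summed normalised counts of 37764 to 69713 in DMSO and 26138 to 60933 in DOX. DMSO 15 had the highest sum, and DOX 9, the highest library for most serine synthesis genes, had the lowest. Endothelial markers summed to 1639 to 4047 in DMSO and 1800 to 9785 in DOX, podocyte markers to 2692 to 8352 and 2335 to 28731, with DOX 21 the highest, proximal tubule markers to 735 to 2090 and 734 to 1077, and principal cell markers to 1317 to 13647 and 2398 to 4335. Most of the endothelial sum was Emcn alone (1511 to 3910 in DMSO and 1715 to 9607 in DOX). Most of the proximal tubule sum was Slc5a2 alone (549 to 2090 and 671 to 1075). Macrophage markers summed to 333 to 4720 in DMSO and to 1.13 in DOX 19, the lowest of a DOX range that reached 1624. These values are descriptions, and their part in the levels of the serine synthesis genes was not tested.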
